A study of Homo sapiens with 9 samples.

Results

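Replication-dependent histone genes encode the proteins that package newly copied DNA: the core histones H2A, H2B, H3 and H4, and the linker histone H1. They were followed here in RNA from HaCaT cells, an established line of immortalized human keratinocytes. The members are the protein-coding genes whose symbol is H1-1 to H1-6 or begins with H2AC, H2BC, H3C or H4C and a digit. Of 83 matching symbols, 13 were pseudogenes or not protein coding and were left out, which left 70 members of 78899 gene IDs. They comprised 6 H1, 17 H2A, 19 H2B, 13 H3 and 15 H4 genes, of which 55 lie on chromosome 6, 13 on chromosome 1, and 1 each on chromosomes 12 (H4C16) and 21 (H2BC12L). The rule uses names alone and no measured value.

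The study compared subpopulations of this line obtained by fluorescence sorting, with a stated interest in progenitor-like keratinocytes. The labels name 3 libraries BD, 3 NBD and 3 control; they call BD and NBD subpopulations and the control the cell line, and do not spell out either short name. All 9 came from the same line, grown in a high-glucose medium with serum and low calcium, and no treatment or time point is given for any group. The labels do not tell whether replicates were grown separately, so the p-values capture only the spread between these libraries, which may be technical. Libraries were built from total RNA after removal of rRNA, so RNAs without a poly(A) tail could be sequenced. The protocol names a pair of RNA kits without saying which library came from which.

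In dividing animal cells these genes are transcribed mainly in S phase, when DNA is copied, and their mRNAs are degraded when replication ends. Most are clustered, lack introns, and end in a short RNA stem-loop in place of a poly(A) tail. The stem-loop binding protein SLBP and the U7 small nuclear RNA form that end, and NPAT, a target of cyclin E and CDK2, drives transcription at the clusters. Replacement histones such as H3.3 are made throughout the cycle from separate genes with ordinary polyadenylated mRNAs.

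Total counts ranged from 17128797 to 29512856 per library. Summed over 15 keratinocyte markers, levels were 4376 to 7972 normalised CPM (a gene's count per unit of library total, after TMM scaling), while 8 fibroblast markers summed to 0.766 to 5.24, 6 melanocyte markers to 0.204 to 1.93, 6 immune markers to 0.617 to 6.86 and 4 endothelial markers to 1.85 to 18.9. The control libraries were not alike, and control replicates 1 and 2 stood apart from replicate 3 and from all sorted libraries in many genes. The keratinocyte sum was 7210 and 7972 CPM in control replicates 1 and 2 and 5068 in control replicate 3. In control replicates 1 and 2 the fibroblast sum was 0.766 and 1.29 CPM against 2.89 to 5.24 in the other 7 libraries, the immune sum 1.07 and 0.617 against 3.89 to 6.86, and the endothelial sum 2.61 and 1.85 against 6.74 to 18.9. Comparisons with control are therefore also given without control replicate 3 where calls among the members or related lists changed. This choice was made with the values of these libraries known. The fit keeps as controls only the 2 libraries that stood apart. Its calls therefore cannot separate sorting from whatever set these 2 libraries apart.

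The stem-loop is the shared sequence feature of these mRNAs, and its forms are shown because they define how the family's 3′ ends are made. Among 35 members whose GENCODE 29 transcript runs at least 30 bases past the stop codon, 28 hold a perfect stem of 6 base pairs that begins with GG, with a loop of 4 bases that begins with TT. It started 23 to 68 bases after the stop codon, with a median of 36. Only 4 forms occurred, written here as DNA with the stem in capitals and the loop in lower case.
Form in 16 members: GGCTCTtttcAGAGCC
Form in 5 members: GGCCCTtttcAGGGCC
Form in 4 members: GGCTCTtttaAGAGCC
Form in 3 members: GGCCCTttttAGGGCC
The 4 forms differ in the middle of the stem and in the last loop base, while the outer GG and CC pairs are fixed by the search.

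At the proteins, the families differ in how far members have diverged. The 15 H4 genes encode 2 distinct proteins, 1 of them shared by 14 genes, and the 13 H3 genes also encode 2, 1 of them shared by 10. The 17 H2A genes encode 11 and the 19 H2B genes 15, and each of the 6 H1 genes encodes its own. Identical proteins can come from coding sequences that differ at many positions. H3C3 and its nearest relative H3C6 encode the same protein and differ at 52 of 408 coding bases. H2BC3 and its nearest relative H2BC5, whose proteins differ, differ at 42 of 378.

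Promoters were taken from RefSeq (GRCh38.p14), as 250 bases before and 50 after each start, and 64 of the 70 members had one. On either strand, CCAAT was present in 84.4% of them against 34.6% of all 35116 promoters, TATAAA in 65.6% against 11.5%, and the octamer ATTTGCAT in 40.6% against 1.77%. The octamer, the element bound by OCT1 (gene POU2F1), was present in 11 of 16 H2A and 14 of 18 H2B promoters, in 1 of 11 H3 promoters, and in 0 of 6 H1 and 0 of 13 H4 promoters. The H3 match is in the window listed for H3C4, chr6:26199244-26199543, which is also the window of H2AC7. H3C4 itself is annotated at 26196840 to 26197250, so this match does not show an octamer next to an H3 gene. The shared window was counted for both genes in these shares. A match describes letters and does not show a bound site. The upstream 250 bases are shown for H2BC3 and H3C3, the pair whose levels differ most between libraries, and for H2BC4. Among H2B genes H2BC4 had the highest mean level per kb of coding sequence, though level with H2BC12 (1050 and 1041 CPM per kb). Capitals mark these 3 motifs on either strand, and each sequence is read toward its own gene.
H2BC3, GRCh38.p14 chr6:26043714-26043963, minus strand: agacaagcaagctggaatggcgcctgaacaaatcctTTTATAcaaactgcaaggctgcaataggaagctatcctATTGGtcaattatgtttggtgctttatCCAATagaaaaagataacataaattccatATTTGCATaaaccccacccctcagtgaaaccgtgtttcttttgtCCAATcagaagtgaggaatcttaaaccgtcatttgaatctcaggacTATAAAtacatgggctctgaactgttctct
H3C3, GRCh38.p14 chr6:26045134-26045383, plus strand: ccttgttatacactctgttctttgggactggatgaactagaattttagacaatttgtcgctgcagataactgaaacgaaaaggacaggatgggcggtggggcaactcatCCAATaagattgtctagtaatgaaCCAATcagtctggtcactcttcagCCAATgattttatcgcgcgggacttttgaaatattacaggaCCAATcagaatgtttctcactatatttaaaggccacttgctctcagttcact
H2BC4, GRCh38.p14 chr6:26123927-26124176, minus strand: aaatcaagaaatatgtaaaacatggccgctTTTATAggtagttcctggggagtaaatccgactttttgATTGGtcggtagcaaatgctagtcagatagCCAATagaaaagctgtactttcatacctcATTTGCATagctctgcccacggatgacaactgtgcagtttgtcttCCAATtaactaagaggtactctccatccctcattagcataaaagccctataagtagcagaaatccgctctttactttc
The H2BC3 promoter carries the octamer 120 bases before the start, CCAAT in the forward direction 149 and 76 bases before it and TATAAA 30 bases before it. H2BC4 has the same forward elements apart from TATAAA, with the octamer 123 bases before the start and CCAAT 152 and 78 bases before it. The H3C3 promoter holds CCAAT 4 times, all forward, at 141, 117, 93 and 52 bases before the start, and neither of the other motifs. The whole 300-base H2BC3 promoter has 3 CpG dinucleotides, the lowest number among the 64 members, against 8 for H3C3, 7 for H2BC4, a median of 11 and a highest of 27.

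Histone mRNA was abundant in all 9 libraries. The 70 members together took 0.785%, 1.57% and 1.10% of all counts in the BD libraries, 0.602%, 0.943% and 1.29% in the NBD libraries, and 0.925%, 1.11% and 1.16% in the control libraries. Their summed level was 7543, 15834 and 10976 CPM in BD replicates 1 to 3, 5872, 10085 and 14997 in NBD, and 8534, 10702 and 11265 in control. Wilson 95% intervals of these shares spanned at most 0.00994 percentage points and cover counting error only. The lowest and one of the highest sums both fell in NBD, and the BD and NBD ranges overlapped almost fully. Group means were 11451 ± 4166 CPM in BD, 10318 ± 4567 in NBD and 10167 ± 1442 in control (SD, n = 3 each).

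**Figure D1:**
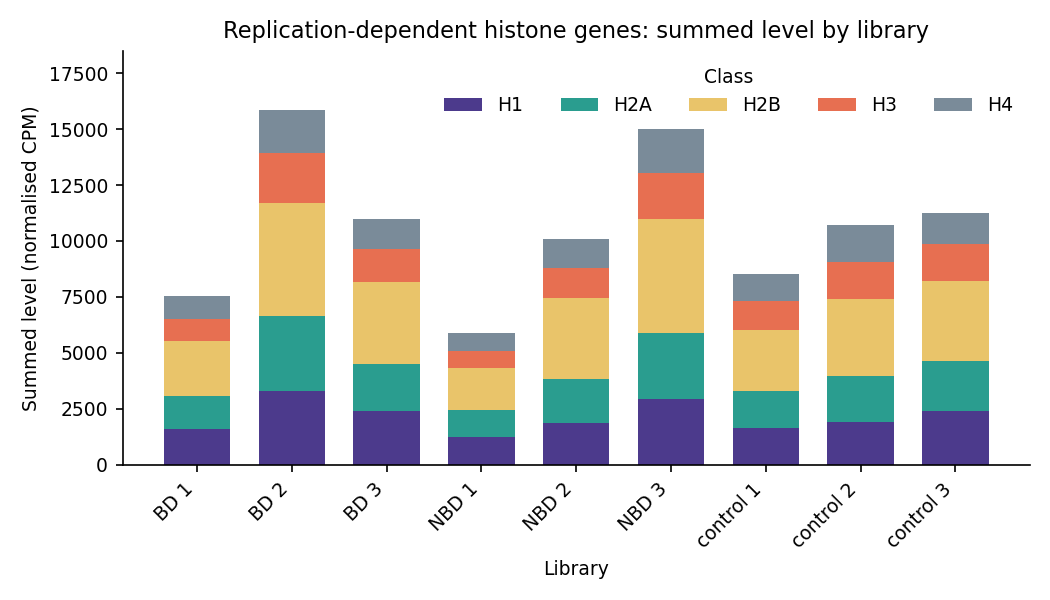
Summed normalised CPM of the 70 replication-dependent histone genes in each of the 9 libraries, stacked by class (y axis from 0; 1 bar per library). The bars run from 5872 CPM in NBD replicate 1 to 15834 CPM in BD replicate 2, and H2B is the largest class in every bar.

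The mix of classes varied far less than the total. H2B genes gave 31.7% to 36.1% of the members' counts over the 9 libraries, H1 17.9% to 21.8%, H2A 19.0% to 21.3%, H3 13.0% to 15.5% and H4 12% to 15.2%. Per kb of coding sequence, which allows genes of different length to be compared, the H2B genes summed to 9755 ± 3384 CPM per kb in BD, 9295 ± 4236 in NBD and 8569 ± 1205 in control (SD, n = 3 each). The H1 genes summed to 3707 ± 1277, 3064 ± 1299 and 3027 ± 600.1 CPM per kb in the same groups. Per kb, the mean sum of each class differed between groups by less than the SD among BD or among NBD replicates. For H1 and H2A, BD and control differed by more than the smaller control SD (600.1 and 730 CPM per kb). As a share of the members' counts, H3 stood at 15.2%, 15.5% and 14.7% in control and 13.0% to 14.2% in the 6 sorted libraries, so that these did not overlap. With H3C3 left out of the counts the control shares were 14.1%, 14.5% and 14.7% and overlapped the sorted ones. This share was singled out after its values were seen and was not tested.

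Of the 6 linker histone genes, H1-4, H1-2 and H1-5 held 87.0% to 89.8% of the class's level per kb. H1-4 stood at 560, 1162 and 816 CPM in BD, 453, 692 and 1018 in NBD, and 522, 606 and 813 in control. H1-2 stood at 462, 1010 and 810 CPM in BD, 335, 514 and 864 in NBD, and 538, 626 and 737 in control. Both follow the order of the summed levels within each group, with BD replicate 2 and NBD replicate 3 high. Per kb the mean over 9 libraries was 1123 ± 360 CPM for H1-4, 1025 ± 339 for H1-2 and 738 ± 203 for H1-5 (SD, n = 9 libraries). H1-4 was above H1-2 in 6 of 9 libraries, so the order of these 2 is not settled by the data, while H1-2 was above H1-5 in 9 of 9. H1-6, the testis linker histone, had at most 20 counts in any library.

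Among H2A genes the level was spread more widely, with the top 3 holding 36.2% to 44.5% of the class's level per kb. H2AC20, on chromosome 1 (GRCh38, 149886975 to 149887364), stood at 183, 583 and 428 CPM in BD, 137, 313 and 519 in NBD, and 149, 176 and 394 in control. Its spread was the widest of the leading genes, and control replicates 1 and 2 sat near the lowest sorted libraries while control replicate 3 sat near their middle. H2AC11 on chromosome 6 stood at 225, 438 and 219 CPM in BD, 185, 227 and 327 in NBD, and 262, 306 and 225 in control, with control replicate 3 the lowest of its group. Per kb H2AC20 averaged 827 ± 436 CPM, H2AC11 688 ± 200 and H2AC6 685 ± 249 (SD, n = 9 libraries). H2AC20 was above H2AC11 in 5 of 9 libraries and H2AC11 above H2AC6 in 4 of 9, so these 3 do not separate. The other H2A genes named for a high level, H2AC12 and H2AC14, averaged 546 and 555 CPM per kb, and 5 of the 17 were under 10.

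H2B was the broadest class, with 16 of its 19 genes above 100 CPM per kb. H2BC4 stood at 284, 634 and 481 CPM in BD, 203, 389 and 587 in NBD, and 267, 328 and 400 in control. H2BC12 stood at 297, 549 and 408 CPM in BD, 221, 415 and 571 in NBD, and 311, 386 and 383 in control. The 2 were level with each other, at 1050 ± 388 and 1041 ± 299 CPM per kb, and H2BC4 was the higher in 4 of 9 libraries. H2BC18 and H2BC5 followed at 879 ± 299 and 856 ± 251 CPM per kb (SD, n = 9 libraries).

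The H3 and H4 classes were each led by a single gene. H3C2 stood at 284, 654 and 477 CPM in BD, 206, 376 and 614 in NBD, and 300.0, 378 and 472 in control. Per kb it averaged 1024 ± 368 CPM and was above H3C10, at 806 ± 300, in 9 of 9 libraries. H3C8 and H3C7 followed at 609 ± 178 and 597 ± 202 CPM per kb, and only 6 of the 13 H3 genes were above 100. H4C3 stood at 225, 502 and 347 CPM in BD, 165, 292 and 457 in NBD, and 270.0, 330 and 344 in control. Per kb it averaged 1054 ± 343 CPM and was above H4C5, at 824 ± 203, in 9 of 9 libraries, with H4C4 and H4C8 at 722 ± 250 and 481 ± 133 (SD, n = 9 libraries). The leading genes of 4 classes, H1-4, H2BC4, H3C2 and H4C3, thus lay between 1024 and 1123 CPM per kb.

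The members varied together from library to library. Of the 58 members that passed the filter on low counts, 46 had their lowest level in NBD replicate 1, 29 had their highest in BD replicate 2 and 21 their highest in NBD replicate 3. Within groups, BD replicate 2 was the highest BD library for 55 of the 58, NBD replicate 3 the highest NBD library for 55, and NBD replicate 1 the lowest for 57. BD replicate 1 was the lowest BD library for 49 and control replicate 1 the lowest control for 46. Replicate 1 was thus the lowest for most members in every group, and a link to the replicate number was not tested. The median ratio of the highest to the lowest library within a group was 2.03 in BD, 2.56 in NBD and 1.47 in control, against 1.38, 1.63 and 1.63 over all tested genes with a count in each library. Histone genes were thus more uneven than most genes among the sorted replicates and not among the controls. All libraries came from the same line but differed in depth. Control replicates 1 and 2 had 18054999 and 17128797 counts, and the others had 25754757 to 29512856. The members were measured in the same libraries, and these ratios were not tested. The 51 members with at least 50 counts in each library had mean levels from 4.86 CPM for H3C6 to 738 CPM for H1-4, and varied from 2.02-fold to 4.63-fold over the 9 libraries, with a median of 2.73-fold.

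**Figure D2:**
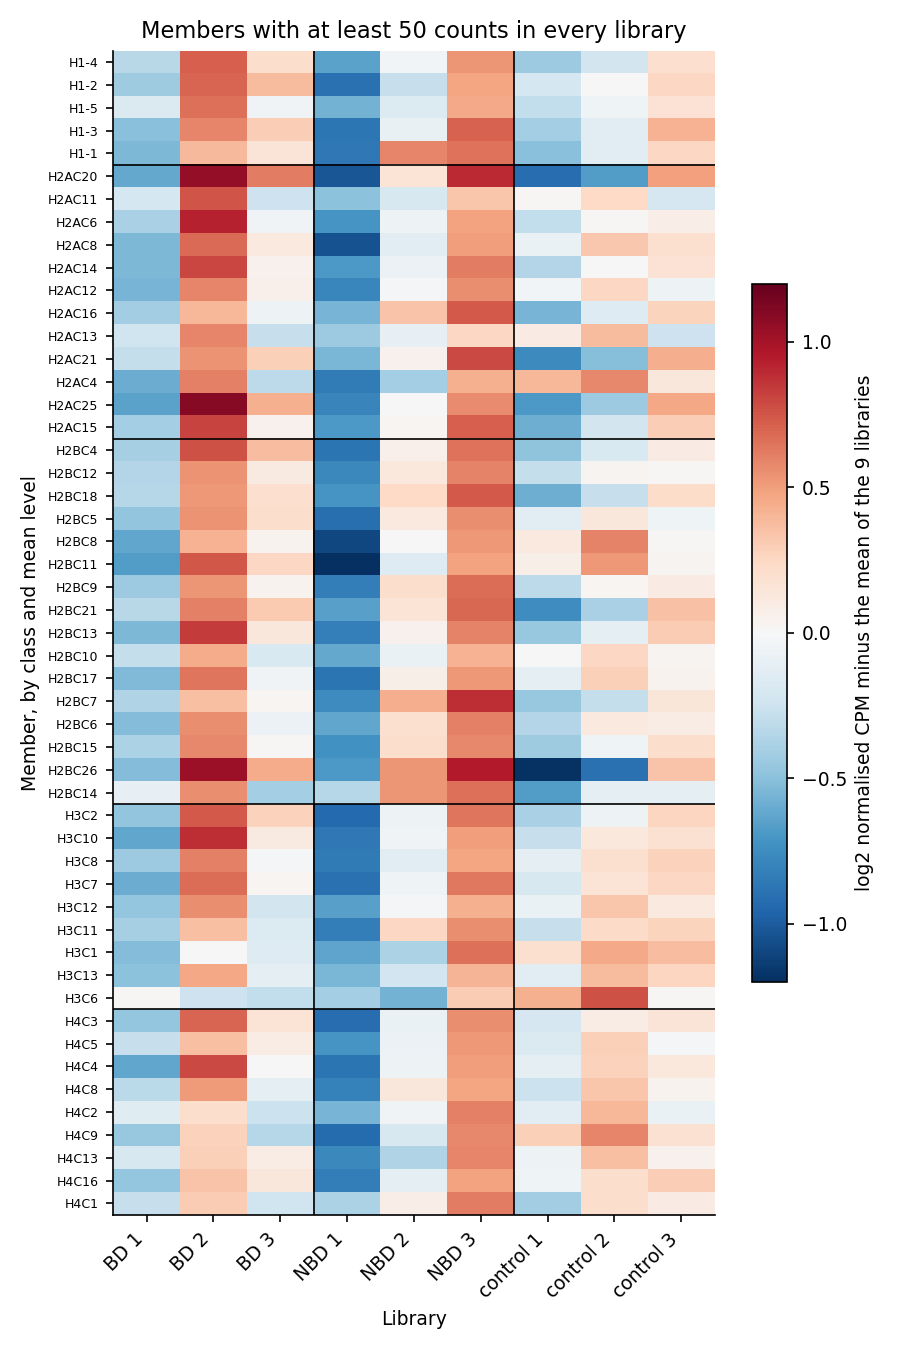
Level of the 51 members with at least 50 counts in every library (rows, by class and mean level) in the 9 libraries (columns), as log2 normalised CPM minus the member's mean over the libraries (blue low, red high). BD replicate 2 and NBD replicate 3 are red and NBD replicate 1 is blue in nearly every row, while H2AC20, H2AC21, H2AC25 and H2BC26 are blue in control replicates 1 and 2.

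Among 6 tested short non-coding RNAs of a list of 15, 1 ranked the libraries within each group as the histone sum did. It was RN7SL1, the RNA of the signal recognition particle, which stood at 8431, 29661 and 20498 CPM in BD replicates 1 to 3, 9616, 20282 and 29964 in NBD, and 14742, 22298 and 26603 in control. The summed list did not keep that order, with 41496 CPM in control replicate 2 and 34341 in control replicate 3, where the histone sum was 10702 and 11265. Near-identical copies of RN7SL1 exist, which makes its count uncertain, and its part in the histone result was not tested. In bulk RNA, fewer cells in S phase and less histone RNA per cell cannot be told apart.

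Between BD and NBD no member was called by edgeR's quasi-likelihood test at an adjusted p under 0.05 (0 of 58; 3 of 16921 genes, 0.0177%, were called in all). An unadjusted p under 0.05 was reached by 0 members, while 5.86% of all tested genes reached it, and DESeq2 called 0 members. The median log2 fold change of the 58 was 0.09 against -0.02 over all genes, with 42 of 58 above 0 and 56 of 58 within 1 of 0. The standard error of a member's log2 fold change had a median of 0.36, so changes of the size of that median could not be resolved. No member had BD and NBD libraries that did not overlap (0 of 58, where 14.6% of all tested genes had such groups).

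The leading genes of the 5 classes were not called either. The log2 fold change of BD against NBD was 0.23 ± 0.35 for H1-4 (SE; edgeR adjusted p = 0.937), 0.30 ± 0.55 for H2AC20 (0.952), 0.25 ± 0.39 for H2BC4 (0.939), 0.24 ± 0.40 for H3C2 (0.944) and 0.23 ± 0.37 for H4C3 (0.942). Single libraries set these values. Without BD replicate 2 the median over the members was -0.22, without NBD replicate 1 it was -0.17, without BD replicate 1 it was 0.30 and without NBD replicate 3 it was 0.45. All 5 leading genes were below 0 without BD replicate 2, and again without NBD replicate 1.

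Against control, edgeR again called no member with all 9 libraries. In BD against control edgeR called 0 of 58 members and 0 of 16921 genes (0%), with 2 members, H2BC3 and H3C3, at an unadjusted p under 0.05, and 13.8% of all genes there. In NBD against control it called 0 of 58 members and 0 genes (0%), with H3C3 alone at an unadjusted p under 0.05, and 9.13% of all genes there. DESeq2 on the same libraries called H3C3 lower in BD against control (adjusted p = 0.00962) and no member in NBD against control. With no filter on low counts edgeR tested the 39344 genes with at least 1 count and also called members. Those counts, and the calls over all genes in that fit and with DESeq2, are given under how the results depend on the processing. Medians over the members were 0.11 and -0.02, against 0.03 and 0.04 over all genes. Groups that did not overlap were seen for 1 member in BD against control, H3C1, where 15.8% of all genes had them, and for 0 members in NBD against control, where 8.42% had them. H3C1 stood at 26, 37.1 and 33.4 CPM in BD and 42.5, 51 and 48.0 in control.

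Without control replicate 3, the controls are only the 2 libraries that stood apart, and 61 members were tested and a few were called. In BD against control 24.3% of all 17755 genes were called, and 3 of 61 members were: H2BC26 was higher, and H3C3 and H2BC3 lower. In NBD against control 18.2% of all genes were called, and 2 of 61 members were, H3C3 and H4C11, both lower. These shares among members are below those among all genes. With control replicate 3 as the sole control, the spread is taken from the sorted groups and every member's adjusted p was 1.00, so calls say nothing there and only the fold changes are given. The 3 comparisons share libraries, so their calls are not independent of each other.

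**Figure D3:**
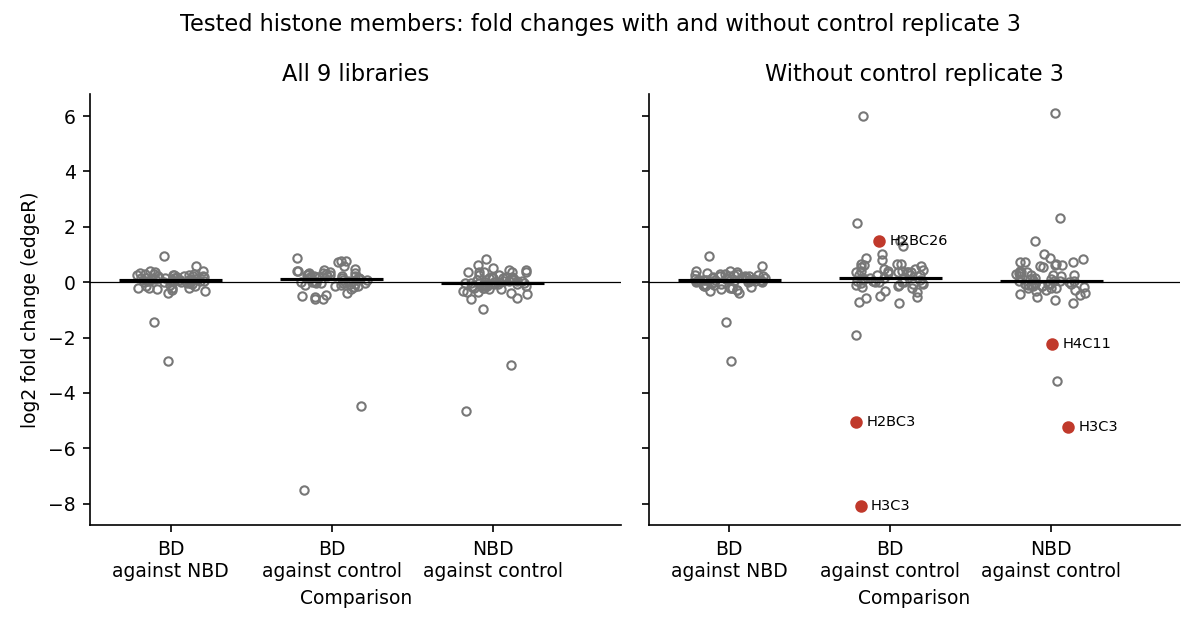
log2 fold changes of the tested histone members in the 3 comparisons (y axis, edgeR; 1 point per gene, horizontal bar at the median), with all 9 libraries (left, 58 members) and without control replicate 3 (right, 61 members). Filled points with names were called at an adjusted p under 0.05; all other members are open, and the points at 6.02 and 6.11 on the right are H1-6, which had 0 counts in control replicates 1 and 2.

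H3C3 and H2BC3 stood out from every other member. H3C3 (ENSG00000287080, an H3 gene with the shared H3 protein) had 0.174, 0.942 and 0.172 CPM in BD, 0.333, 8.32 and 0.433 in NBD, and 102, 127 and 0.151 in control replicates 1, 2 and 3. H2BC3 (ENSG00000276410, an H2B gene with a protein of its own) had 0.278, 2.71 and 0.310 CPM in BD, 0.0741, 8.44 and 0.472 in NBD, and 33.8, 37.7 and 0.716 in control. Both genes were thus high in control replicates 1 and 2, intermediate in NBD replicate 2, and near the detection floor in most other libraries, control replicate 3 among them. Control replicates 1 and 2 are also the libraries with the high keratinocyte and low fibroblast, immune and endothelial marker sums given above, whose part in this result was not tested. In counts, H3C3 had 1987 and 2263 reads in control replicates 1 and 2, 201 in NBD replicate 2, 24 in BD replicate 2 and 4 to 11 in the other 5 libraries. H2BC3 had 661 and 673, then 204, 69 and 2 to 19 in the same libraries.

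The genes are neighbours among the members and point away from each other. In RefSeq, H2BC3 is on the minus strand of chromosome 6 at 26043227 to 26043713 and H3C3 on the plus strand at 26045384 to 26045869, with 1670 bases between them, so their promoters face each other. The annotated pseudogene H2AC5P lies in the gap, at 26043989 to 26044357, and had 0 counts in all libraries, where 3 counts would be 0.103 to 0.168 CPM. Members on both sides were expressed in every library, apart from the testis gene H1-6. H2AC4, the next histone gene before the pair, stood at 47.1, 108 and 57.2 CPM in BD, 39.6, 53.6 and 95.7 in NBD, and 93.3, 106 and 78.1 in control. H1-2, the next histone gene after it, stood at 335 CPM or more in all 9 libraries, and H3C2 at 206 or more. Of the histone genes around the pair, H2BC3 and H3C3 alone were that much higher in control replicates 1 and 2.

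**Figure D4:**
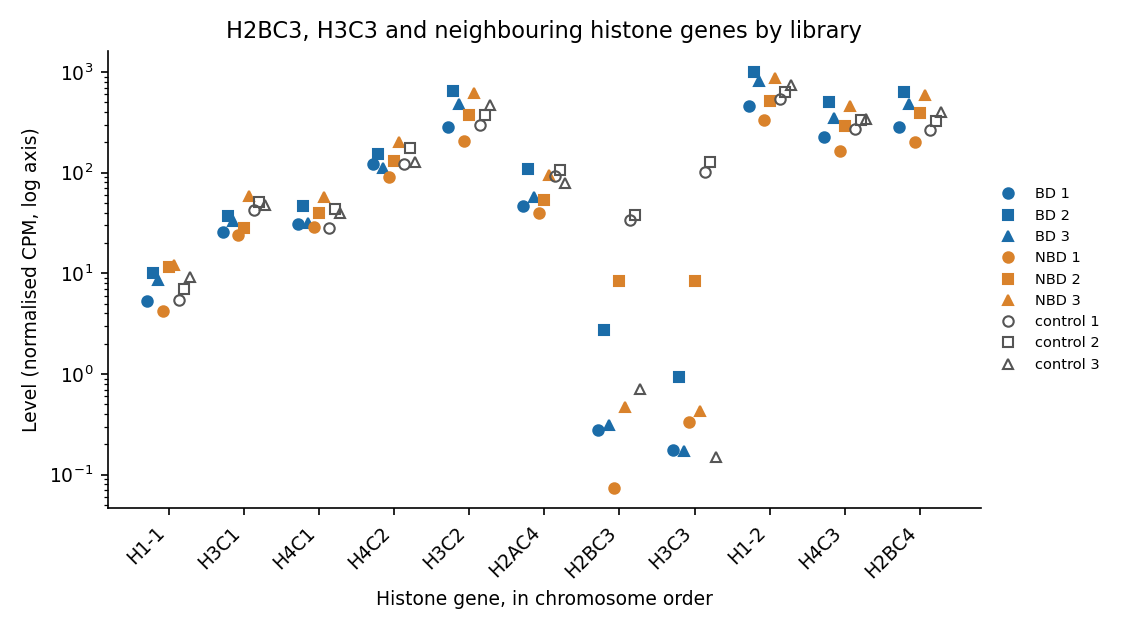
Level in normalised CPM (log axis) of H2BC3, H3C3 and 9 neighbouring histone genes in chromosome order, without H1-6, which has libraries at 0 counts; 1 point per library, with colour for the group, shape for the replicate and open symbols for control. H2BC3 and H3C3 reach 33.8 to 127 CPM in control replicates 1 and 2, 8.44 and 8.32 CPM in NBD replicate 2 and 0.0741 to 2.71 CPM elsewhere, while the libraries of each drawn neighbour lie within 2.05-fold to 3.18-fold of each other.

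In each of control replicates 1 and 2, both members exceeded 4 times the level of the highest other library. They were the only 2 of the 58 tested members to do so, and 32 of 16921 genes (0.189%) did. H2BC3 only just passed this cut, at 33.8 CPM in control replicate 1 against 8.44 in NBD replicate 2. The pair was singled out for this pattern, so these counts describe it and are not a test. NBD replicate 2 held 7.28% of the mean level of control replicates 1 and 2 for H3C3 and 23.6% for H2BC3. For ADD2, a gene outside the family that was chosen for the same pattern, it held 2.68%, with 1.61 CPM in NBD replicate 2 and 0 counts in the other 6 libraries. The 3 shares differ, and what they have in common was not tested.

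Tests of the pair turned on 1 control library. With all libraries the log2 fold change of BD against control was -7.49 ± 1.98 for H3C3 (SE; edgeR adjusted p = 0.333) and -4.46 ± 1.66 for H2BC3 (0.343). Without control replicate 3 these were -8.08 ± 1.17 (0.00111) and -5.04 ± 1.27 (0.0161). The adjusted p spanned 2.79e-90 to 1.00 and 2.68e-27 to 1.00 over the 19 alternatives. For NBD against control they were -4.66 ± 1.66 (0.539) and -3.01 ± 1.53 (0.545) with all libraries, and -5.24 ± 0.98 (0.00532) and -3.58 ± 1.18 (0.0572) without control replicate 3, and the alternatives spanned 1.44e-48 to 1.00 and 7.11e-14 to 1.00. The lowest adjusted p of each range came from the fit with no filter, and the next lowest from the fit without control replicate 3. With no filter the standard error for H3C3 in BD against control was 0.36, against 1.98 in the main fit. With control replicate 3 as the only control the sign turned, to 1.46 and 0.61 for BD and to 4.25 and 2.02 for NBD. That library held only 4 and 19 reads of the 2 genes, so the direction there is uncertain. For H2BC3, NBD replicates 1 and 3 (0.0741 and 0.472 CPM) lay below control replicate 3 (0.716). For H3C3 they (0.333 and 0.433 CPM) lay above it (0.151). BD against NBD gave -2.83 ± 1.81 (0.834) and -1.46 ± 1.54 (0.901), and 0.13 and 1.99 without NBD replicate 2.

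H2BC26 showed the opposite arrangement among controls. This H2B gene is ENSG00000196890, at 228458107 to 228460470 on chromosome 1 of GRCh38. It stood at 52.8, 154 and 103 CPM in BD, 46.9, 109.7 and 147 in NBD, and 33.2, 40.6 and 96.3 in control. Control replicates 1 and 2 were lower than all other 7 libraries, and control replicate 3 lay inside the sorted range. With all libraries its log2 fold change was 0.86 ± 0.52 in BD and 0.83 ± 0.52 in NBD against control (SE; edgeR adjusted p = 0.445 and 0.571). Leaving out control replicate 3 gave 1.5 ± 0.49 (0.0470) and 1.47 ± 0.49 (0.0595), and the adjusted p spanned 0.0161 to 1.00 and 0.0438 to 1.00 over the 19 alternatives. The lowest value of both ranges came from the fit with no filter. Control replicates 1 and 2 were both below the other 7 libraries for 2 of 58 members, H2BC26 and H4C14, and for 21.6% of all tested genes. They were both above for 3 members, H2BC3, H3C3 and H3C6, and for 18.9% of all tested genes.

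The chromosome 1 genes as a group took a smaller share of histone counts in control replicates 1 and 2. The 13 chromosome 1 members, from the cluster between H2BC18 and H2AC21 and the H2AC25 and H2BC26 pair, gave 7.62% and 7.5% of all members' counts there. In control replicate 3 the share was 12.4%, and in the 6 sorted libraries it lay between 10.7% and 12.7%. The 11 members of the first cluster gave 6.90% and 6.80% against 9.59% to 11.2% in the other 7 libraries, and H2AC25 with H2BC26 gave 0.724% and 0.698% against 1.09% to 1.59%. Both chromosome 1 groups thus took a smaller share in these 2 libraries, whereas the chromosome 6 members gave 91.7% and 91.8% there and 86.6% to 88.7% elsewhere. In level, the first cluster summed to 588 and 728 CPM there, within the 570 to 1639 of the sorted libraries. H2AC25 with H2BC26 summed to 61.8 and 74.7 CPM there, against 73.6 to 252 in the sorted libraries. In BD against control the 9 tested chromosome 1 members had a median log2 fold change of 0.44 and the 48 of chromosome 6 one of 0.06, and without control replicate 3 these were 0.86 and 0.14. Wilson 95% intervals of these shares spanned at most 0.315 percentage points. This grouping was chosen after the values had been seen and was not tested.

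H4C11 was called at very low counts. It had 4, 4 and 6 reads in BD, 4, 1 and 5 in NBD and 12, 12 and 9 in control, and was not tested with all libraries. In the fit without control replicate 3 its log2 fold change in NBD against control was -2.24 ± 0.66 (SE; edgeR adjusted p = 0.0387, and 0.0387 to 0.693 over the 8 alternatives that tested it). Its coding sequence is identical to that of H4C12, which had 0.689 to 2.19 CPM, so the split of reads between them is uncertain.

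Shared sequence or overlapping annotation touches several members. The coding sequences of H2AC18 and H2AC19, H3C14 and H3C15, and H4C14 and H4C15 are identical within each pair, and H2BC12 and H2BC12L differ at 4 bases. All but H2BC12 averaged under 1 CPM. H2AC7 and H3C4, which averaged 0.282 and 0.439 CPM, lie within 1 further annotated gene (ENSG00000282988), and H2AC17 overlaps H3C12. Overlaps with another annotated gene are also found at higher levels, in H2BC18 (a mean of 353 CPM), H2BC5 (323), H2AC16 (157), H2AC21 (116), H2BC6 (108), H2BC15 (96.8), H3C12 (83.2) and H2AC15 (47.8). The sources used here do not give how reads with several matches, or in overlapping genes, were counted, so these levels are uncertain. The remaining low members include H2AC1, H2BC1 and H4C7, with at most 4 counts in any library. H1-6, H2AC1, H2AC17, H2AC19, H2BC1, H2BC12L, H3C14, H3C15, H4C6, H4C7, H4C11 and H4C15 made up the 12 members not tested, and none exceeded 20 counts in any library.

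The summed level of genes that make and process histone mRNA varied little between libraries, but single genes of the list did not all do so. The list of 23 transcription and processing genes summed to 1271 to 1502 CPM, a ratio of highest to lowest of 1.18, against 2.7 for the histone members. Its 22 genes with at least 50 counts in each library varied 1.23-fold to 3.77-fold, with a median of 1.83-fold against 2.73-fold for the histone members. NPAT, UPF1, CASP8AP2 and SYMPK varied more than that histone median, by 3.77-fold, 3.68-fold, 3.61-fold and 2.88-fold, and were named for it after their values were seen. SLBP stood at 86.8, 96.5 and 81.4 CPM in BD, 75.9, 83.4 and 99.9 in NBD, and 73.5, 78.4 and 94.7 in control. Its log2 fold change in BD against NBD was 0.03 ± 0.17 (SE; edgeR adjusted p = 0.987). U7 small nuclear RNA (RNU7-1) had 0 counts in all libraries, where 3 counts would be 0.103 to 0.168 CPM. It was 1 of 7 among the 15 listed short non-coding RNAs with 0 counts throughout, RN7SK among them. The 0 therefore does not show that U7 was absent from the cells. Of 22 tested members of the list, 0 were called in any comparison with all libraries, at medians of -0.02 for BD against NBD, and of -0.04 and -0.07 for BD and NBD against control.

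NPAT followed the split among controls. It stood at 78.2, 73.5 and 73.7 CPM in BD, 72.0, 73.9 and 93.1 in NBD, and 39.6, 24.7 and 73.3 in control, so that control replicates 1 and 2 were the lowest of the 9 libraries. With all libraries its log2 fold change was 0.71 ± 0.32 in BD and 0.80 ± 0.32 in NBD against control (SE; edgeR adjusted p = 0.364 and 0.539), and -0.09 ± 0.32 in BD against NBD (0.983). In the fit that left out control replicate 3 it was called higher at 1.23 ± 0.23 (0.00393) and 1.33 ± 0.23 (0.00357), and the adjusted p reached 1.00 among the alternatives. In the same fit POU2F1, the octamer-binding factor OCT1, was called lower in BD at -0.95 ± 0.23 (0.0125), with 132 and 113 CPM in control replicates 1 and 2 and 49.1 to 90.0 in the other 7 libraries. CASP8AP2, a cofactor of histone transcription, was called higher in NBD at 1.04 ± 0.30 (0.0366), with 65.4, 28.0 and 85.9 CPM in control and 88.0 to 101 in NBD. Adjusted p for both ran up to 1.00 over the alternatives. Of the 22 tested genes, 2 were called in each of these comparisons (9.09%), against 24.3% and 18.2% of all genes. The summed histone level in control replicates 1 and 2, 8534 and 10702 CPM, lay within the range of the sorted libraries.

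Replacement histones varied less than the replication-dependent genes. The 13 genes found of this list summed to 1007 to 1381 CPM, a ratio of 1.37, and the 11 with at least 50 counts in each library varied 1.31-fold to 2.44-fold. H3-3B, which encodes H3.3, stood at 409, 454 and 480.3 CPM in BD, 352, 422 and 599 in NBD, and 325, 355 and 497 in control. H3-3A, the other H3.3 gene, was between 25.9 and 41.4 CPM, and H2AZ1, the variant H2A.Z, between 167 and 312. Of 11 tested members 0 were called with all libraries, at medians of -0.03, 0.04 and -0.10. When control replicate 3 was left out, H2AJ was called higher and CENPA, the centromeric H3, lower in BD against control (0.95 ± 0.28 and -0.87 ± 0.20 on the log2 scale, edgeR adjusted p = 0.0329 and 0.0103, up to 1.00 over the alternatives). These were 2 of 11 (18.2%), against 24.3% of all genes, and 0 were called in NBD against control.

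The other lists of the cell division cycle had orders of their own. The 41 genes of S phase and DNA replication summed to 3989 to 5889 CPM, a ratio of 1.48, with the highest sums in control replicates 1 and 2 (5353 and 5889). PCNA, the sliding clamp of DNA polymerase, stood at 313, 355 and 280.2 CPM in BD, 245, 273 and 313 in NBD, and 311, 333 and 259 in control, a log2 fold change of 0.19 ± 0.19 in BD against NBD (SE; edgeR adjusted p = 0.895). With all libraries 0 of the 41 genes were called in any comparison, at medians of 0.04, -0.07 and -0.12. Without control replicate 3, 3 were called higher and 8 lower in BD against control (26.8% of 41, against 24.3% of all genes), among the latter the helicase subunits MCM4, MCM6 and MCM7 at -0.80 ± 0.19, -1.08 ± 0.17 and -0.76 ± 0.19 (edgeR adjusted p = 0.0131, 0.00142 and 0.0159, up to 1.00 over the alternatives). In NBD against control 2 were called higher and 6 lower (19.5%, against 18.2% of all genes), with MCM4, MCM6 and MCM7 at -0.68 ± 0.19, -1.08 ± 0.17 and -0.95 ± 0.19 (adjusted p = 0.0335, 0.00181 and 0.00747, up to 1.00 over the alternatives).

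The list of 20 histone chaperones, proteins that carry histones to DNA, summed to 1863 to 2573 CPM, a ratio of 1.38, and 0 were called with all libraries. Without control replicate 3, 4 were called lower in BD against control (20% of 20, against 24.3% of all genes), among them NASP, NAP1L4 and SUPT16H at -0.73 ± 0.17, -0.74 ± 0.16 and -0.70 ± 0.19 (edgeR adjusted p = 0.0116, 0.00840 and 0.0217, up to 1.00 over the alternatives). In NBD against control 3 of 20 were called (15%, against 18.2% of all genes), RBBP4 and NAP1L4 lower at -0.55 ± 0.17 and -0.53 ± 0.16 and ATRX higher at 1.29 ± 0.34 (adjusted p = 0.0457, 0.0449 and 0.0258, up to 1.00 over the alternatives).

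The 25 genes of G2 and mitosis summed to 3684, 3394 and 2876 CPM in BD replicates 1 to 3 and to 4604, 5238 and 4776 in NBD, so that these groups did not overlap. Their median log2 fold change in BD against NBD was -0.41 against -0.02 over all genes, with 4 of 25 above 0, 8 at an unadjusted p under 0.05 (5.86% of all genes reached it) and 0 called. In the fit without control replicate 3, 7 were called lower in BD against control (28% of 25, against 24.3% of all genes), among them the kinases CDK1 and AURKA and the anaphase activator CDC20 at -1.48 ± 0.23, -0.99 ± 0.21 and -0.69 ± 0.21 (edgeR adjusted p = 0.00150, 0.00669 and 0.0359, up to 1.00 over the alternatives). In NBD against control 4 of 25 were called (16%, against 18.2% of all genes). CDK1 and CDC20 were lower at -0.93 ± 0.23 and -0.77 ± 0.21, and the kinetochore genes CENPE and CENPF higher at 2.17 ± 0.41 and 1.31 ± 0.40 (adjusted p = 0.0183, 0.0292, 0.00516 and 0.0425, up to 1.00 over the alternatives). The histone sums of the same 6 libraries overlapped, and the difference between the lists was not tested.

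**Figure D5:**
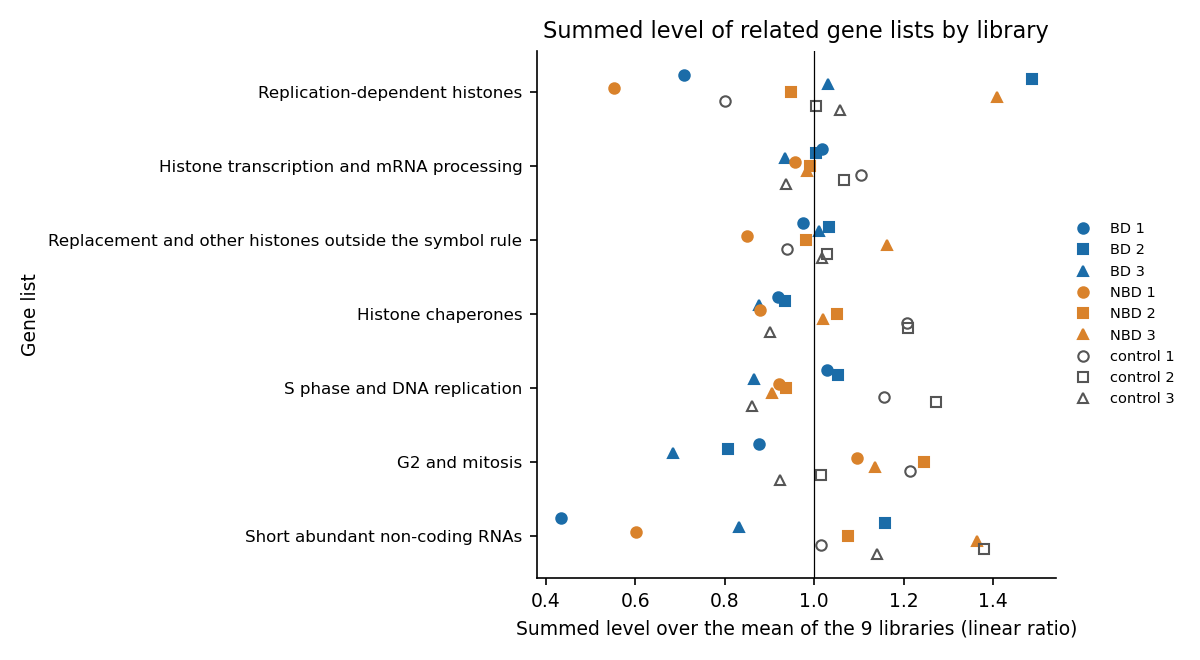
Summed level of each gene list in each library divided by the list's mean over the 9 libraries (x axis, linear ratio; 1 point per library, colour for the group, shape for the replicate, open symbols for control). The histone members spread with a highest-to-lowest ratio of 2.7 and the short non-coding RNAs with 3.18, against 1.18 to 1.82 for the other 5 lists.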

How the data were processed

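The authors deposited raw counts for each gene in each library. The submitters' processing notes name the tools FastQC 0.74, Trimmomatic 0.39, STAR 2.7.11b and featureCounts, and the build GRCh38. The sources used here do not state the annotation release, the strand setting or the treatment of multiply matching reads. Symbols came from a gene name table and GENCODE 29, and type and coordinates from GENCODE 29 for 66 members and from RefSeq for H2AC18, H2AC19, H3C2 and H3C3.

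Tests used edgeR 4.0.16 in R 4.3.3 on all 9 libraries with a term per group (6 residual degrees of freedom). Genes were kept by filterByExpr, which left 16921 genes and 58 members, and libraries were scaled by TMM. Tests were two-sided, adjusted by Benjamini-Hochberg across every tested gene, and calls were made at an adjusted p under 0.05. Normalised CPM are counts relative to the TMM-scaled total. Alternatives were RLE size factors, no filter, 1 CPM in 3 libraries, DESeq2 1.42.0, limma-voom (limma 3.58.1), a block for replicate number, the 6 libraries compared alone, each library left out, control replicate 3 as the only control, mitochondrial rRNA removed, and protein-coding genes alone.

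Members given in full are the 3 highest per class by mean level per kb, those called, and up to 5 per direction called without control replicate 3. Several annotated transcripts hold no untranslated ends, so levels are printed per kb of coding sequence, and the named set joins the top 3 by coding length and by transcript length (20 members). Of related lists, 6 fixed genes and up to 3 called members per comparison are named, and CENPE and CENPF were added after their values were seen. The members and lists were chosen with earlier results of these data known. Plots used matplotlib 3.10.9 in Python 3.11.15.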

Additional observations from a re-analysis of the deposited data

How the results depend on the processing

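Of 19 alternatives, most left the histone members uncalled. Counts of members called moved from 0 with no filter, to 2 in BD against NBD and 3 in each comparison with control, and with DESeq2, to 1 in BD against control; leaving out a library gave 0 in BD against NBD, 0 to 3 in BD against control and 0 to 2 in NBD against control. All genes called in BD against NBD numbered 131 with no filter, 57 with DESeq2, 5 with limma-voom, 5 with the 6 libraries alone, 9 with control replicate 3 as the only control and 0 to 16 when a library was left out, against 3. In BD against control 1162 genes were called with no filter, 167 with DESeq2, 1 with limma-voom and 0 to 4317 when a library was left out, and in NBD against control 594, 29 with DESeq2, and 0 to 3228. With no filter the tested genes were the 39344 with at least 1 count, all 70 members among them, and with DESeq2 the 16921 of the main fit. The cause of these shifts was not tested.

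When a library was left out, log2 fold changes in BD against NBD ran from -0.078 to 0.57 for H1-4, -0.091 to 0.83 for H2AC20, -0.065 to 0.67 for H2BC4, -0.078 to 0.71 for H3C2, -0.10 to 0.66 for H4C3, -0.055 to 0.16 for SLBP and -0.15 to 0.050 for NPAT. For H3C3 they ran from -4.08 to 0.13 and for H2BC3 from -3.31 to 1.99, with the sign turned without NBD replicate 2. With control replicate 3 as the only control, H3C3 and H2BC3 turned to 1.46 and 0.61 in BD and to 4.25 and 2.02 in NBD, and in BD POU2F1 turned to 0.032, SUPT16H to 0.013, MCM4 to 0.027, MCM6 to 0.25, MCM7 to 0.30 and CDC20 to 0.15. In NBD the same setting turned MCM4 to 0.14, MCM6 to 0.24, MCM7 to 0.093, RBBP4 to 0.028, NAP1L4 to 0.17, CDK1 to 0.066 and CDC20 to 0.058. For H3C3 and H2BC3 that single control held only 4 and 19 reads.

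The labels do not say whether libraries with the same replicate number belong together. Deviations of same-numbered libraries correlated across genes at r = 0.0025 to 0.66, above 0.1 in 6 of 9 pairs. A library correlated best with its own number in 13 of 18 cases. A batch shared by replicate number is therefore not excluded, and it was not tested. With the replicate number as a block, 0 genes were called in each comparison and the median over the members was 0.11, 0.09 and -0.06. With 3 libraries a group and a median standard error of 0.36, changes of the size of the medians over members could not be resolved, and members under about 50 counts are limited by counting error.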
